A study of Cricetulus griseus with 6 samples.

Results

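Genes that restrain or read out the extracellular signal-regulated kinase (ERK) cascade, 10 in number, were examined in CHO-T cells after silencing of *Xbp1*. They are the ERK phosphatase genes *Dusp4*, *Dusp5* and *Dusp6*, the Sprouty genes *Spry1*, *Spry2* and *Spry4*, the Spred genes *Spred1* and *Spred2*, and the ETS transcription factor genes *Etv4* and *Etv5*. All 10 were found by symbol, each on a single entry, among 27311 gene symbols in the deposited files. The genes were chosen by family and name, with the fold changes of these same 6 libraries already known, among them that of *Dusp6*. Their values in the 2 conditions are therefore given as a description. Where one of them is called, the call only sorts the genes by the limits applied to all genes and is not independent evidence.

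The CHO-T line derives from Chinese hamster ovary cells by retroviral transfer of the mouse T-cadherin (*Cdh13*) cDNA and puromycin selection, and this background was common to all libraries. The cells received negative control siRNA (control siRNA, n = 3 libraries) or *Xbp1* siRNA of a single sequence (n = 3 libraries), and RNA was collected 48 h later. The study's methods describe its replicates in general as independent experiments, but the labels do not say whether the 3 libraries of a condition came from separate cultures. The SDs below measure the spread between these libraries, and the standard errors of the fit also borrow from the spread of other genes. *Xbp1* encodes the transcription factor that the ER stress sensor IRE1α activates by splicing. The study is concerned with the release of extracellular vesicles, and the comparison shows which transcripts differ between cells given the 2 siRNAs. With a single *Xbp1* siRNA sequence, the loss of *Xbp1* and other effects of that sequence cannot be told apart.

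The ERK cascade runs from growth factor receptors through Ras, Raf and MEK to ERK, which enters the nucleus and switches on transcription. Some of the genes it induces encode its own brakes. Dual specificity phosphatases remove the activating phosphates from ERK, while Sprouty and Spred proteins act further up, between the receptor and Raf. Because these genes follow ERK activity, the mRNA of *Dusp6*, *Spry4*, *Etv4* and *Etv5* is widely used as a readout of the pathway.

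Expression is given as FPKM, the number of sequenced fragments scaled to transcript length and to the size of the library, so that levels can be set side by side between genes. Fold changes are differences of log2(FPKM + 0.1) between *Xbp1* siRNA and control siRNA from a limma fit over 14361 genes, given with their standard error (SE). The SE is moderated, as the fit draws each gene's variance toward a trend over all genes tested. The log2(FPKM + 0.1) scale understates the change of weakly expressed genes. Calls of a gene as higher or lower required an adjusted p under 0.05 together with a log2 fold change of 1 or more in size. Only called genes are said below to have risen or fallen.

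Silencing and the libraries were checked first. *Xbp1* had 26.0, 26.2 and 28.4 FPKM in the control libraries and 2.18, 2.11 and 1.39 FPKM with *Xbp1* siRNA. *Cdh13* had 85.2 ± 0.478 FPKM (SD, n = 3) in control cells and 32.9 ± 0.476 FPKM (SD, n = 3) after silencing. The FPKM columns summed to between 646651 and 666267 with control siRNA and to between 593487 and 600986 with *Xbp1* siRNA, and the median log2 fold change of all genes tested was 0.01. The mesenchymal marker *Vim* was abundant, at 377 ± 10.7 FPKM (SD, n = 3) with control siRNA, whereas *Col1a1* and *Col1a2* were listed at 0; the 5 mesenchymal markers summed to 405 to 429 FPKM and to 337 to 364 FPKM with *Xbp1* siRNA. Most of this sum was *Vim*, and *Fn1*, of the same list, had 13.1 FPKM in control cells and 23.3 FPKM after silencing, a log2 value of 0.83 (adjusted p = 2.15e-05, limma). Of the ovarian markers *Fshr*, *Lhcgr* and *Zp3* were listed at 0 in every library, and the 7 markers matched summed to 5.70 to 7.81 FPKM with control siRNA and to 6.64 to 8.78 FPKM with *Xbp1* siRNA. The 4 epithelial markers matched summed to 1.83 to 2.16 FPKM in the control libraries and to 4.59 to 5.79 FPKM with *Xbp1* siRNA, with *Krt18* and *Krt19* at 0. The 2 tested, *Epcam* and *Cdh1*, were called higher, against 2.69% of all genes tested. *Cdh1* was scarcely expressed, with means of 0.131 FPKM with control siRNA and 0.434 FPKM with *Xbp1* siRNA. Its log2 fold change of 1.29 (SE 0.43, adjusted p = 0.0489, limma) passed the adjusted p narrowly. Neither call was recomputed under other settings. The part of these markers in the values below was not tested. In bulk RNA, fewer cells with a transcript and less transcript per cell cannot be told apart.

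With *Xbp1* siRNA, *Dusp6* and *Dusp4* fell to 35.3% and 43.9% of their control levels, *Spry1* rose 2.52-fold from a low level, and the other 7 genes were not called. Of the 10 genes, 1 was called higher, against 2.69% of all genes tested, and 2 were called lower, against 2.50%. By adjusted p alone, without the fold threshold, 1 gene was higher, against 20.2% of all genes tested, and 6 were lower, again against 20.2%. All 3 libraries with *Xbp1* siRNA lay above all 3 control libraries for 1 gene, which 26.1% of all genes tested did, and below them for 7 genes, which 25.8% did. For *Spred2* and *Etv4* the conditions overlapped. The median log2 fold change of the 10 genes was −0.34. All 10 passed the filter of a mean of 0.1 FPKM, and each also passed it on the control libraries alone. As the genes were picked with this comparison known, nothing is read from these counts.

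**Figure D1:**
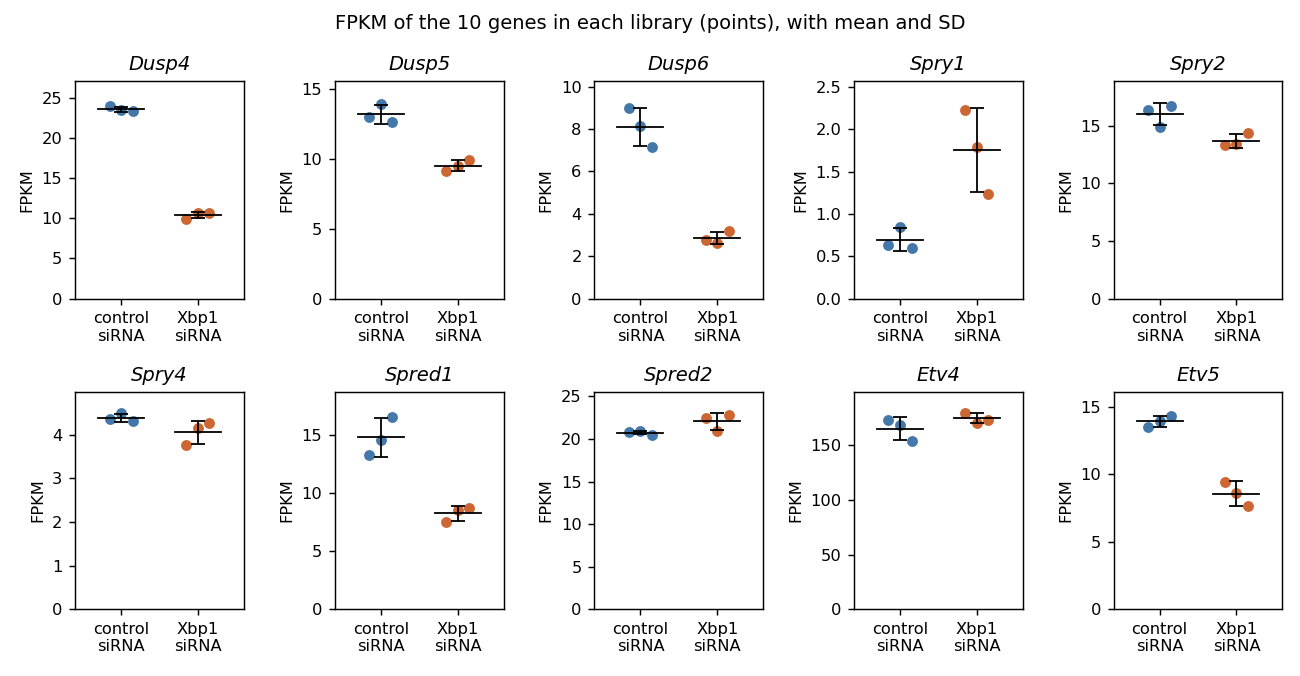
FPKM of each of the 10 genes (vertical axis, from 0, scaled per gene) in the 3 libraries with control siRNA (blue) and the 3 with *Xbp1* siRNA (orange); the long bar is the mean and the error bar the SD. *Dusp4*, *Dusp6*, *Spred1* and *Etv5* show a clear gap downward, *Spry1* a gap upward with a wide spread, and *Spred2* and *Etv4* overlap.

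In the control libraries *Etv4* was by far the most abundant of the 10, at 165 FPKM, and *Spry1* the least, at 0.694 FPKM. *Dusp4* followed *Etv4* at 23.6 FPKM and then *Spred2* at 20.7 FPKM, and neither overlapped its neighbours in that order. *Spry2*, *Spred1*, *Etv5* and *Dusp5* came next, with means between 13.1 and 16.0 FPKM. Each overlapped the next, so the order of neighbours is not resolved. The lowest control value of *Spry2*, 14.9 FPKM, was above the highest of *Etv5*, 14.3 FPKM, and of *Dusp5*, 13.9 FPKM. *Dusp6* at 8.10 FPKM and *Spry4* at 4.38 FPKM stood apart from the genes above and below them. With *Xbp1* siRNA, *Dusp4* ranked below *Spred2* and *Spry2* and overlapped *Dusp5*, and *Dusp6* dropped below *Spry4*.

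The phosphatases were lower throughout. *Dusp6* encodes a cytoplasmic phosphatase that is highly selective for ERK and is anchored to it. Its level was 8.98, 8.15 and 7.16 FPKM in the control libraries and 2.78, 2.62 and 3.18 FPKM with *Xbp1* siRNA. The conditions were far apart, with the lowest control library more than 2-fold above the highest library with *Xbp1* siRNA. The log2 fold change was −1.47 (SE 0.12), the largest in size among the 10 genes.

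*Dusp4* encodes a nuclear phosphatase that is itself induced by ERK. It had 23.9, 23.5 and 23.3 FPKM with control siRNA and 9.91, 10.6 and 10.6 FPKM with *Xbp1* siRNA, which gave a log2 fold change of −1.18 (SE 0.0542). Its libraries were the most uniform of the phosphatases, with an SD of 0.02 on the log2 scale among controls and 0.05 with *Xbp1* siRNA. *Dusp5*, another nuclear phosphatase, specific for ERK, had 13.0, 13.9 and 12.6 FPKM against 9.13, 9.50 and 9.92 FPKM. The groups did not overlap, but at 72.4% of the control and a log2 fold change of −0.46 (SE 0.0687) the difference was under the fold threshold.

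The 3 phosphatases together summed to 44.8 ± 1.56 FPKM in control cells and 22.7 ± 0.926 FPKM after silencing (SD, n = 3 each), or 50.7% of the control. Their proportions shifted as well. *Dusp5* made up 29.3% of the sum in the control libraries and 41.8% with *Xbp1* siRNA, while the share of *Dusp6* went from 18.0% to 12.6%. The plot of summed FPKM shows the phosphatase column losing height in all 3 libraries, mainly from its *Dusp4* and *Dusp6* segments.

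**Figure D2:**
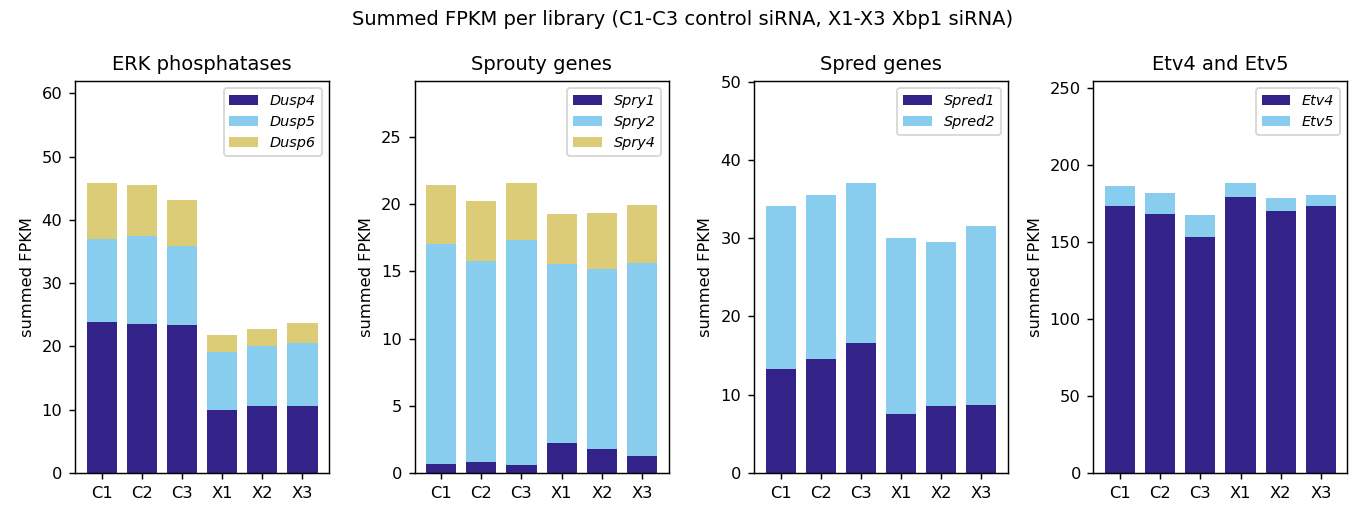
Summed FPKM (vertical axis) of the genes of each family in each library (C1 to C3 control siRNA, X1 to X3 *Xbp1* siRNA), with colours for the genes. The phosphatase sum lies between 43.0 and 45.9 FPKM in the control libraries and between 21.8 and 23.7 FPKM with *Xbp1* siRNA, whereas the *Etv4* and *Etv5* sum overlaps between the conditions.

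Of 7 other MAP kinase phosphatases listed, *Dusp2* and *Dusp9* were listed at 0 in all libraries and 5 were tested, of which 4 were higher and 1 lower by adjusted p, against 20.2% of all genes tested each way, and 1 was called higher, against 2.69%. *Dusp1*, an immediate early nuclear phosphatase that acts on p38 and JNK as well as ERK, rose from 5.35 ± 0.789 to 12.2 ± 0.173 FPKM (SD, n = 3 each), a log2 fold change of 1.18 (SE 0.11, adjusted p = 0.000144, limma). *Dusp7*, the close relative of *Dusp6* among the cytoplasmic ERK phosphatases, had 8.35, 7.69 and 8.77 FPKM in the control libraries and 15.9, 15.8 and 16.4 FPKM with *Xbp1* siRNA, which gave a log2 fold change of 0.95 (SE 0.0691, adjusted p = 4.84e-05, limma) that stayed just under the fold threshold. *Dusp8* and *Dusp16*, which act on JNK and p38, had log2 fold changes of 0.94 and 0.52, and *Dusp10*, of the same preference, had −0.70.

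*Dusp6* and *Dusp7* were thus expressed at similar levels in control cells and at unequal levels after silencing. The ratio of *Dusp6* to *Dusp7* lay between 0.817 and 1.07 in the control libraries and between 0.166 and 0.194 with *Xbp1* siRNA. Their sum was 16.4 ± 0.834 FPKM in control cells and 18.9 ± 0.579 FPKM after silencing (SD, n = 3 each). This pair was chosen after its values were seen.

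Sprouty proteins are membrane-associated adaptors that dampen receptor signalling to Ras. *Spry1* had 0.637, 0.848 and 0.597 FPKM with control siRNA and 2.23, 1.79 and 1.24 FPKM with *Xbp1* siRNA. Each library with *Xbp1* siRNA was above each control library, but they differed among themselves by an SD of 0.40 on the log2 scale, the widest spread of the 10 genes. The log2 fold change of *Spry1* was 1.20 (SE 0.26). It was 0.69 with a pseudocount of 1, where *Spry1* was no longer called, and 1.01 to 1.41 after dropping single libraries.

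*Spry2*, the main Sprouty gene of these cells, had 16.4, 14.9 and 16.7 FPKM with control siRNA and 13.3, 13.4 and 14.4 FPKM with *Xbp1* siRNA, which gave a log2 fold change of −0.22 (SE 0.0676). The groups were apart by a narrow margin. *Spry4* had 4.36, 4.49 and 4.30 FPKM against 3.76, 4.14 and 4.26 FPKM, with a log2 fold change of −0.11 (SE 0.10) that did not pass the adjusted p. The highest *Spry4* library with *Xbp1* siRNA was next to the lowest control library.

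*Spry1* was a small part of the Sprouty total in both conditions. The 3 genes summed to 21.0 ± 0.752 FPKM in control cells and to 19.5 ± 0.328 FPKM after silencing (SD, n = 3 each), 92.6% of the control, and the groups did not overlap. The share of *Spry1* in this sum went from 3.32 ± 0.772% to 9 ± 2.68% (SD, n = 3 each), that of *Spry2* from 75.8% to 70.2%, and that of *Spry4* was 20.9% and 20.8%. The remaining family gene, *Spry3*, was listed at 0 in the control libraries and at no more than 0.0652 FPKM with *Xbp1* siRNA, and was not tested.

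Spred proteins are relatives of the Sprouty proteins that bring the Ras GTPase activating protein neurofibromin to the membrane. *Spred1* and *Spred2* differed between the conditions to unlike extents, and neither was called. *Spred1* had 13.3, 14.6 and 16.6 FPKM with control siRNA and 7.56, 8.55 and 8.74 FPKM with *Xbp1* siRNA, or 55.7% of the control level. On the log2 scale this was a fold change of −0.83 (SE 0.10), short of the fold threshold, and no library of one condition reached the range of the other. *Spred2* had 20.8, 20.9 and 20.5 FPKM against 22.5, 20.9 and 22.8 FPKM, a log2 fold change of 0.09 (SE 0.0519) with overlapping groups.

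The share of *Spred1* in the sum of these 2 genes accordingly went from 41.6 ± 2.89% to 27.3 ± 1.96% (SD, n = 3 each). *Spred3*, the third gene of the family, had a level close to that of *Spred1* in control cells, at 13.1 ± 0.235 FPKM (SD, n = 3), and 7.88 ± 0.562 FPKM (SD, n = 3) with *Xbp1* siRNA. Its log2 fold change of −0.73 (SE 0.0729, adjusted p = 0.000225, limma) was near that of *Spred1*.

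*Etv4* and *Etv5* encode ETS factors of the PEA3 group, whose transcription follows ERK activity downstream of growth factor receptors. *Etv4* had 173, 168 and 153 FPKM with control siRNA and 179, 170 and 173 FPKM with *Xbp1* siRNA. The groups overlapped, and the log2 fold change was 0.08 (SE 0.0489). *Etv5* had 13.5, 13.9 and 14.3 FPKM against 9.44, 8.64 and 7.62 FPKM, with a log2 fold change of −0.69 (SE 0.0881), and its conditions were well separated at 61.7% of the control.

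*Etv4* supplied 92.2% of the summed *Etv4* and *Etv5* level in control cells and 95.3% with *Xbp1* siRNA, and the sum itself was 178 ± 9.63 and 182 ± 5.08 FPKM (SD, n = 3 each). The third PEA3 gene, *Etv1*, was weakly expressed, at 3.30 ± 0.191 FPKM (SD, n = 3) with control siRNA, and had a log2 fold change of −0.53 (SE 0.12, adjusted p = 0.0093, limma). Across the 12 other ETS factors tested, 3 were called lower and none higher, against 2.50% and 2.69% of all genes tested. By adjusted p alone 8 were lower and 1 higher, against 20.2% each way, and the list's median log2 value was −0.26 against 0.01 for all genes tested. The 3 called were *Etv3*, an ETS repressor, with −1.13 (adjusted p = 0.000257), *Ets2* with −1.12 (adjusted p = 1.84e-05) and *Elk4*, a partner of serum response factor, with −1.04 (adjusted p = 0.000262), all from limma. *Elk4* lost its call when control library 1, control library 3 or *Xbp1* siRNA library 2 was left out, with values of −0.98 to −0.99, and neither *Elk4* nor *Etv3* was called with a pseudocount of 1.

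**Figure D3:**
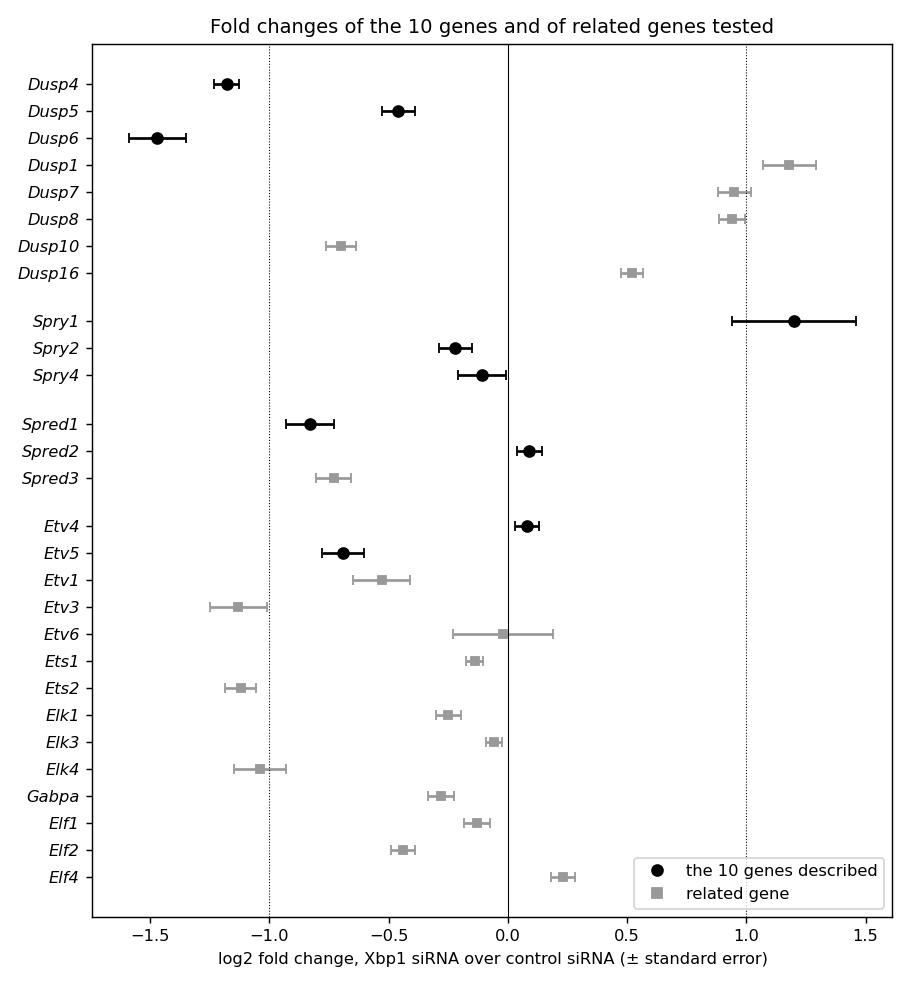
Log2 fold change of *Xbp1* siRNA over control siRNA (horizontal axis, with SE) for the 10 genes (black circles) and for related genes tested (grey squares); dotted lines mark a log2 fold change of 1 in either direction. *Dusp4* and *Dusp6* lie left of the lower line while *Dusp1* lies right of the upper one, and *Spred2* and *Etv4* sit near 0 while *Spred1*, *Spred3* and *Etv5* lie to the left.

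For 6 of these genes the values of all libraries, scaled by depth, were whole multiples of a common step, which was taken as 1 fragment. A common step need not be 1 fragment. The same search gave *Egf*, listed at 0.0255 FPKM in control library 1, an implausible 34 fragments there, so the fragment numbers are estimates. Steps of the lowest values over all genes gave depths of 94.0% and 98.0% for control replicates 2 and 3 and of 102%, 98.2% and 116% for *Xbp1* siRNA replicates 1 to 3, relative to control replicate 1. *Dusp6* then corresponded to 321, 274 and 251 fragments with control siRNA and 102, 92 and 132 with *Xbp1* siRNA. *Dusp4* rested on 430 to 1014 fragments per library, *Dusp5* on 322 to 451, *Spred1* on 190 to 400, *Spry2* on 255 to 323 and *Spry4* on 170 to 218. Scaled by depth, the log2 ratio of the summed fragments was −1.49 for *Dusp6* with a counting error of 0.094, and −0.11 for *Spry4* with a counting error of 0.0858, against standard errors of 0.12 and 0.10 from the fit. The counting error covers the sampling of fragments only. As the SE of the fit is drawn toward the trend over all genes, nothing is read from how the errors compare. The values of *Spry1*, *Spred2*, *Etv4* and *Etv5* did not fall on a common step, and the number of fragments behind the rise of *Spry1* is unknown.

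The wider pathway was described with lists of other genes by role, 109 symbols in all, of which 106 were matched to 107 entries and 86 entries were tested. Of these 3 were called higher, near the 2.69% of all genes tested, and 8 lower, against 2.50%. By adjusted p alone 19 were higher, near the 20.2% of all genes tested, and 38 were lower, against 20.2%. The median over these 86 log2 fold changes was −0.14. The genes called encode ligands, ETS factors, other ERK targets and the phosphatase *Dusp1*.

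Among ligands, *Areg* and *Ereg*, which encode the epidermal growth factor receptor ligands amphiregulin and epiregulin, fell by 3.13 and 2.84 on the log2 scale (adjusted p = 1.06e-08 and 7.97e-06, limma). *Hgf*, the ligand of Met, rose by 1.04 on the log2 scale (adjusted p = 0.00528, limma), but was not called without *Xbp1* siRNA replicate 1 (0.97) or 3 (0.96), after quantile normalization (0.93) or with a pseudocount of 1 (0.56). Of the 2 entries of *Nrg1*, a ligand of ERBB3 and ERBB4, the first was called higher at 1.32 (adjusted p = 0.0115, limma), though not with a pseudocount of 1, and the second was not. Most receptors of the EGF family were sparse. *Egfr* was above 0 in 1 library only, at 0.0191 FPKM, and *Erbb3* and *Erbb4* stayed at or under 0.0769 FPKM, whereas *Erbb2* had 8.36 ± 0.451 FPKM with control siRNA and 11.8 ± 0.564 FPKM with *Xbp1* siRNA (SD, n = 3 each). Of 9 receptor genes tested none was called, against 2.69% of all genes called higher and 2.50% called lower, and 4 were higher and 3 lower by adjusted p, against 20.2% of all genes tested each way, and the largest log2 fold change was that of *Met*, at 0.80 (adjusted p = 0.000125, limma).

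From adaptors to ERK itself, none of 22 genes was called, against 2.69% of all genes tested called higher and 2.50% called lower, shares at which a count of 0 in a list of this size is unremarkable. By adjusted p alone, 4 were higher and 7 lower, against 20.2% of all genes tested in either direction. *Mapk3*, which encodes an ERK kinase, had a log2 fold change of 0.35, and the MEK genes *Map2k1* and *Map2k2* had 0.12 and 0.07. The largest difference was that of *Hras*, with 45.2 ± 3.21 FPKM in control cells and 25.3 ± 2.48 FPKM after silencing (SD, n = 3 each), −0.83 on the log2 scale (adjusted p = 0.000205, limma). Of 9 Ras GTPase activating proteins and other inhibitors tested, 3 were higher and 4 lower by adjusted p, against 20.2% of all genes tested each way, and none was called, against 2.69% called higher and 2.50% called lower. *Cbl*, the ubiquitin ligase that marks activated receptors for degradation, had the largest difference among them, at −0.70 (adjusted p = 0.000117, limma).

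Of 17 other genes known to follow ERK activity, 3 were called lower and none higher, against 2.50% and 2.69% of all genes tested. By adjusted p alone 11 were lower and none higher, against 20.2% each way. The median of the 17 log2 fold changes was −0.39. *Egr1*, *Egr2* and *Ier3* fell by 1.62, 1.30 and 1.16 on the log2 scale (adjusted p = 2.17e-06, 0.00091 and 6.37e-05, limma); *Egr2* was not called with a pseudocount of 1. The 6 targets that did not pass the adjusted p included *Myc*, with a log2 fold change of 0.05, *Epha2* with −0.04 and *Plaur* with −0.07. *Lif* had −0.15 (adjusted p = 0.0556, limma) and *Klf6* −0.18 (adjusted p = 0.0673, limma). *Fos*, at a mean of only 0.301 FPKM with control siRNA, had 0.11 (SE 0.54). Of the 10 genes described, *Etv4* and *Spry4* were among those that did not pass either. These lists were drawn up with earlier results of these libraries known, so their counts are a description.

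**Figure D4:**
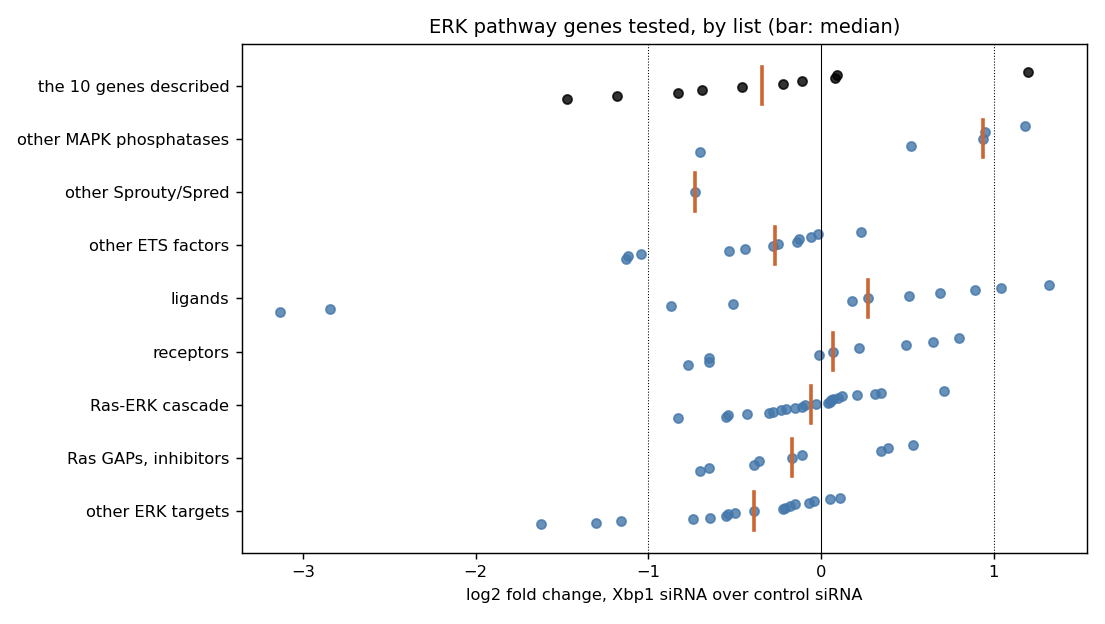
Log2 fold change (horizontal axis) of each gene tested in the ERK pathway, by list, with 1 point per entry, the median as an orange bar and dotted lines at a log2 fold change of 1 in either direction. The other ERK targets lie mostly left of 0 with a median of −0.39, the other MAP kinase phosphatases mostly right of it with a median of 0.94, and the Ras-ERK cascade is centred near 0.

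Genes whose profile over the 6 libraries was most like that of *Dusp6* or *Spry1* were sought among 9393 named genes with a mean of at least 1 FPKM, by the root mean square difference of their centred log2 values. Nearest to *Dusp6* were *Tusc2*, with a difference of 0.0869 and a log2 fold change of −1.35, *Fam219b* with 0.0928 and −1.46, and the ribosomal protein gene *Rps2* with 0.0993 and −1.52. Nearest to *Spry1* were *CUNH20orf204*, with a difference of 0.136 and a log2 fold change of 1.02, *Lzts3* with 0.156 and 1.19, and *Dzip1* with 0.157 and 1.15. None of these 6 is a gene of the lists above. With 3 libraries in each of 2 conditions, the difference between conditions weighs heavily in this measure. A near profile therefore mostly means a similar fold change, and shared regulation was not tested.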

How the data were processed

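RNA-Seq of 6 libraries was used, 3 per condition, 1 file each. The authors prepared stranded mRNA libraries, sequenced them on a HiSeq 2500 and deposited FPKM values per gene symbol. The submitters' processing notes name HISAT2 2.1.0 and Cuffdiff 2.2.1. The genome build, the annotation, strand settings and the handling of reads shared between paralogs are not given in the sources used here. Symbols were used as deposited, and *Ier2* was matched through its RefSeq gene number.

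Because FPKM are not counts, log2(FPKM + 0.1) was tested with limma 3.58.1 (lmFit, eBayes with trend) in R 4.3.3 after entries whose mean over the libraries was under 0.1 FPKM had been left out, with Benjamini-Hochberg adjustment over 14361 genes. Calls needed an adjusted p under 0.05 and a log2 fold change of 1 or more in size, the study's own limits. An exact permutation test of 3 against 3 cannot go below p = 0.10 and was not used. Alternatives were other pseudocounts, filters and scalings, the call rule, the replicate block and leaving out each library. The fit and the step search were tested on simulated data. Fragments were estimated where all 6 depth-scaled values were whole multiples of 1 step within 0.02. Python 3.11.15, numpy 2.4.6 and pandas 2.3.3 were used otherwise.

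The 10 genes and the lists were chosen with earlier results of these data known. Genes named are the 10, *Xbp1*, the called genes of each list or else its largest fold change, and the 3 nearest profiles to *Dusp6* and *Spry1*; markers and other examples such as *Dusp7*, *Spred3*, *Etv1*, *Erbb2*, *Mapk3* and *Myc* were added after their values were seen.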

Additional observations from a re-analysis of the deposited data

How the results depend on the processing

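Across 14 alternatives for each of 27 single genes, 366 of 378 log2 fold changes had the same direction and call as reported, 12 were no longer called and none reversed. All 10 genes kept their direction, and *Spry1* was the only one of them whose call changed. *Dusp6* stayed between −1.55 and −1.23 and *Dusp4* between −1.20 and −1.11. Dropping any single library left 1 of the 10 genes called higher and 2 lower, and 2 to 3 called higher and 7 to 8 lower in the lists. With a pseudocount of 1, 0 of the 10 genes were called higher and 2 lower; over all genes 114 were called higher and 205 lower, and in the pathway lists 1 higher and 5 lower, as raising the pseudocount shrinks log2 fold changes at low FPKM. A filter at a mean of 1 FPKM gave 242 genes called higher, since fewer genes are tested. By adjusted p alone, 6 of the 10 genes were lower, with 2898 genes higher and 2904 lower overall and 19 higher and 38 lower in the lists. After dropping any single library, between 329 and 380 genes were called higher and between 346 and 369 lower. A replicate block in the fit gave 363 called higher and 353 called lower, with 1 and 2 of the 10 genes; deviations of same-numbered libraries correlated across genes with r of −0.0289, −0.0265 and −0.0124, so the numbers were not taken as pairs. The FPKM files give no read totals, and the depth behind *Spry1* is unknown.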
